A study of Rattus norvegicus with 6 samples.

Results

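The genes described are the subunits of the transcription factor NF-kB (Nfkb1, Nfkb2, Rel, Rela and Relb), the IkB proteins that hold it in the cytoplasm (Nfkbia, Nfkbib and Nfkbie), and a pair of proteins that act on the signal upstream of it (Tnfaip3 and Birc3). They were named by symbol, and every probe set of the array annotated with exactly 1 of these symbols was taken. This gave 8 probe sets for 8 of the 10 genes, out of 31099 probe sets on the array. No probe set carried the single symbol Rel or Nfkbie, so those genes were not analysed here. Transcript levels were read on 6 Affymetrix 3' expression arrays of LN4D6, a rat mammary tumour cell line. Of these, 3 arrays held RNA of cells that had not been transfected, and 3 held RNA of LN4D6 cells transfected with CREB3L1, a transcription factor made as a protein of the endoplasmic reticulum membrane and freed by proteolysis. The controls were untransfected and not treated with an empty vector. The labels do not say whether the CREB3L1 cells were a clone, a pool or transiently transfected. The comparison asks which of these transcripts differed between the groups.

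NF-kB is a dimer of REL family proteins. Nfkb1 and Nfkb2 encode the precursors p105 and p100, which are processed to p50 and p52 and themselves act as inhibitors before processing, while RelA, c-Rel and RelB carry the activation domains. In resting cells IkB proteins mask the dimers. Signals from cytokine receptors activate the IkB kinase, IkB is degraded, and the freed dimer switches on target genes that include its own brakes: Nfkbia encodes IkB alpha, which removes NF-kB from DNA, and Tnfaip3 encodes A20, a ubiquitin-editing enzyme that quiets the receptor complexes. Because the switch lies in protein turnover and location, the RNA levels below measure the supply of these parts and not the activity of the factor.

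RefSeq sequence of assembly GRCr8 covered the 250 bases upstream of the annotated start of 8 of the 10 genes, those other than Relb and Birc3. These windows are shown for the genes that the results turn on, because NF-kB is known to control several of its own genes through kappa-B sites near their starts. Capitals mark every match, on either strand, to the kappa-B consensus, and all windows run 5′ to 3′ on the strand of the gene.
Tnfaip3 (chr1:15543980-15544229, minus strand): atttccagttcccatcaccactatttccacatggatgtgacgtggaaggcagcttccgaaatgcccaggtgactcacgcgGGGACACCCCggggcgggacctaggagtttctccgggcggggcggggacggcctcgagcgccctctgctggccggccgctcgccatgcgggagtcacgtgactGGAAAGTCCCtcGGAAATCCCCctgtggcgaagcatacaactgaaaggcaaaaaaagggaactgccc
Nfkb1 (chr2:226805463-226805712, minus strand): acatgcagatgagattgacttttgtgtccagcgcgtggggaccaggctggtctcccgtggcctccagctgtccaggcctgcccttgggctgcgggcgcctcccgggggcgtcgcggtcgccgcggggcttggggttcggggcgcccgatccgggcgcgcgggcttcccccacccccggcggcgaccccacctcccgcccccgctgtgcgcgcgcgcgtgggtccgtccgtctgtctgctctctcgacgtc
Nfkb2 (chr1:255108124-255108373, plus strand): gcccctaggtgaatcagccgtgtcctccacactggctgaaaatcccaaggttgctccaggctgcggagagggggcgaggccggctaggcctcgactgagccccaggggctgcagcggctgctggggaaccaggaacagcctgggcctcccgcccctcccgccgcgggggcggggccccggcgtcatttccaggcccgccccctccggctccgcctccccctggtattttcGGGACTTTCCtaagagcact
Nfkbia (chr6:78597073-78597322, minus strand): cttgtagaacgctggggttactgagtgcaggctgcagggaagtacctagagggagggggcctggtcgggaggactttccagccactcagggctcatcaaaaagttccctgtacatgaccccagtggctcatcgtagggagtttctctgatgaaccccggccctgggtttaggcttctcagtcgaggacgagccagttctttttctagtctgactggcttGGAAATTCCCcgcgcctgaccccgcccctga

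The Tnfaip3 window held 3 kappa-B matches, of which the pair nearest the start lay at -67 to -58 and at -55 to -46, both on the strand opposite to the gene. Nfkb2 held 1 match at -20 to -11 and Nfkbia 1 match at -31 to -22. The windows of Nfkb1, Rela and Nfkbib held 0 matches, which says only that these letters are not in these windows. Rel and Nfkbie, which were not measured, had matches. Of all 33469 upstream windows of the same length in the RefSeq table, 3.54% held a match. Searched too, on both strands, were the cyclic AMP response element TGACGTCA, in 1.59% of all windows and in 0 of the 8, and TGACGTGG, the core of an element of the unfolded protein response, in 0.52% of all windows. The latter was found once among the 8, in the Tnfaip3 window at -213 to -206. These matches describe the sequence and do not show binding.

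Values are RMA expression values on a log2 scale. Differences are CREB3L1 minus untransfected with the standard error, tested with limma over 31042 probe sets with Benjamini-Hochberg adjustment, and a call means an adjusted p below 0.05. A log2 value of 5 was taken as the background level. The array of CREB3L1 replicate 3 stood apart from the others: probe sets at the 3' and 5' ends of the Gapdh transcript differed there by 4.77, against -0.16 to -0.10 on the other 5 arrays, and those of beta-actin by 7.44, against 2.35 to 3.41. Differences are therefore given with all 6 arrays and, for members and named pathway genes, without that array, and its part in single values was not tested further. The single Creb3l1 probe set was below background in all samples (3.36 ± 0.02 and 3.39 ± 0.03, SD, n = 3 each), and since the labels do not give the species of the construct it checks nothing. Of 12 epithelial markers 3 were above background, the basal keratin genes Krt5 and Krt14 and the keratin gene Krt8. Epcam, Cdh1, Krt18 and Krt19 were among those below it. Of 12 fibroblast and mesenchymal markers 4 were above background, Vim (15.35 in untransfected cells), S100a4 (15.70), Col3a1 (14.53) and Acta2 (9.40). Of the other markers, 8 of 10 leukocyte and all 7 endothelial genes measured lay below background, and 0 of the genes on the 4 marker lists passed the test in either direction. The leukocyte genes above background were Cd14 (11.06 in untransfected cells) and Csf1r (7.31). Averaged over its members, the leukocyte list lay at 3.86 to 3.96 on the untransfected and 3.87 to 3.91 on the CREB3L1 arrays.

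Of the 8 members measured, 2 rose in CREB3L1 cells and 0 fell. They were the inhibitor gene Tnfaip3, 2.15-fold higher, and the subunit gene Nfkb1, 1.42-fold higher. Among all probe sets tested, 0.425% were called higher and 0.963% lower, 1.39% together. Leaving out CREB3L1 replicate 3, the count was again 2 higher and 0 lower, with the same genes called, against 1.54% and 2.44% of all probe sets, 3.98% together. In these bulk samples, a change in the share of cells of a kind and a change in RNA per cell cannot be told apart.

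**Figure D1:**
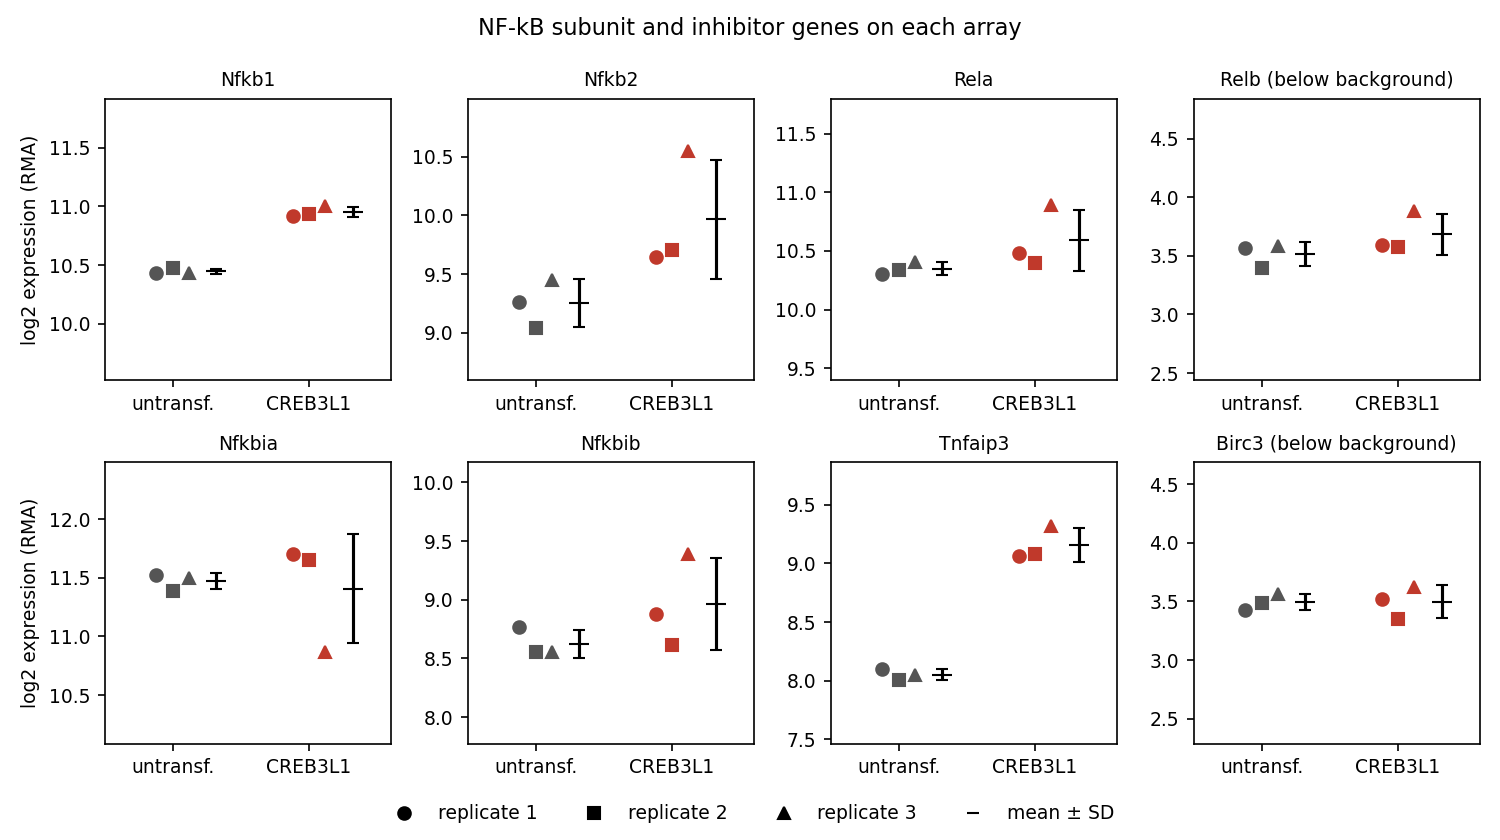
Log2 RMA expression of the 8 measured members on each array, with untransfected arrays in grey, CREB3L1 arrays in red, a marker shape for each replicate number, and the mean ± SD of each group at its right. Every panel spans the same range, and replicate numbers do not pair arrays across groups. The CREB3L1 arrays lie above all untransfected ones for Nfkb1, Nfkb2 and Tnfaip3, and CREB3L1 replicate 3 lies farthest from the other arrays of its group for Nfkb2, Nfkbia and Nfkbib.

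Among the subunits, Nfkb1, which encodes p105 and its product p50, read 10.43, 10.47 and 10.43 on the untransfected arrays and 10.92, 10.93 and 11.00 on the CREB3L1 arrays. The groups did not overlap, and all 3 CREB3L1 arrays, CREB3L1 replicate 3 included, lay within a narrow band. The means were 10.45 ± 0.02 and 10.95 ± 0.05 (SD, n = 3 each), a difference of 0.51 ± 0.04 (limma, adjusted p = 0.00637). The difference was 0.48 ± 0.03 without CREB3L1 replicate 3 (adjusted p = 0.00500). The call was lost when the variance was modelled with a mean-variance trend (adjusted p = 0.0765).

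Nfkb2, the p100 and p52 gene of the alternative pathway, read 9.27, 9.04 and 9.45 on the untransfected arrays and 9.64, 9.71 and 10.55 on the CREB3L1 arrays. All CREB3L1 arrays lay above all untransfected ones, with CREB3L1 replicate 3 highest by a wide margin. The difference of 0.72 ± 0.27 did not pass the test (adjusted p = 0.482), nor did the 0.43 ± 0.12 without CREB3L1 replicate 3 (adjusted p = 0.178). That array exceeded the mean of the other CREB3L1 arrays by 0.87, a deviation matched or passed in size by 15.4% of the probe sets above background.

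Rela, which encodes the p65 subunit of the commonest dimer, read 10.30, 10.34 and 10.41 on the untransfected and 10.49, 10.40 and 10.89 on the CREB3L1 arrays. The groups overlapped, since CREB3L1 replicate 2 lay just under the highest untransfected array. The difference was 0.24 ± 0.14 (adjusted p = 0.809), with a 95% interval of -0.10 to 0.58. It was 0.09 ± 0.05 without CREB3L1 replicate 3, with an interval of -0.03 to 0.22. The interval with all arrays reached past the 0.51 of Nfkb1, and the one without that array did not reach its 0.48. Relb, the partner of p52, was below background on every array, between 3.39 and 3.88, and its difference of 0.17 ± 0.10 did not pass the test (adjusted p = 0.872), nor did the 0.07 ± 0.07 without CREB3L1 replicate 3 (adjusted p = 0.926).

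**Figure D2:**
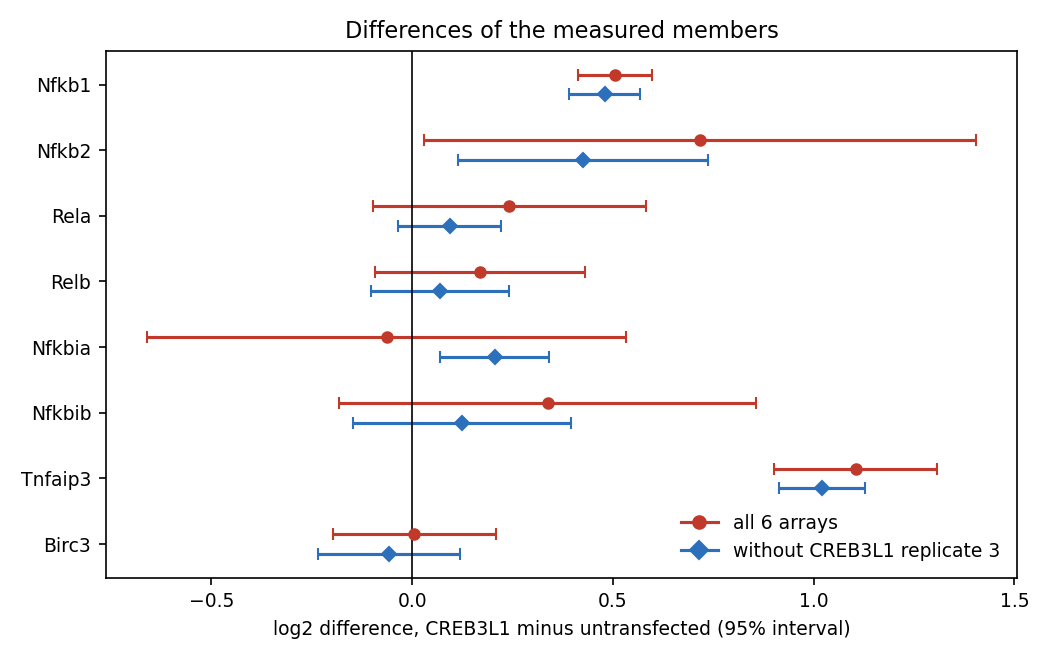
Log2 difference, CREB3L1 minus untransfected, for the 8 measured members, with 95% intervals from limma, for all 6 arrays (red circles) and without CREB3L1 replicate 3 (blue diamonds). The centres for Nfkb1 and Tnfaip3 go from 0.51 to 0.48 and from 1.10 to 1.02, that for Nfkbia goes from -0.06 to 0.21, and the intervals of Tnfaip3 and Nfkbia narrow.

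Tnfaip3, the gene of the deubiquitinase A20, read 8.10, 8.00 and 8.05 on the untransfected arrays and 9.06, 9.08 and 9.32 on the CREB3L1 arrays. The groups lay far apart, with all CREB3L1 arrays above all untransfected ones. The means were 8.05 ± 0.05 and 9.15 ± 0.15 (SD, n = 3 each), a difference of 1.10 ± 0.08 (limma, adjusted p = 0.00660). It was 1.02 ± 0.04 without CREB3L1 replicate 3 (adjusted p = 0.00110). The call was lost in an ordinary test without moderation (adjusted p = 0.0630). When any 1 of the other 5 arrays was left out, both Tnfaip3 and Nfkb1 kept their call, with adjusted p from 0.0300 to 0.0496 for Tnfaip3 and from 0.0327 to 0.0487 for Nfkb1.

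Nfkbia, the gene of IkB alpha, read 11.52, 11.39 and 11.50 on the untransfected and 11.70, 11.65 and 10.87 on the CREB3L1 arrays. CREB3L1 replicates 1 and 2 lay above all untransfected arrays, and CREB3L1 replicate 3 lay below all of them. With all arrays the difference was -0.06 ± 0.24 (adjusted p = 0.9998), with a 95% interval of -0.66 to 0.53. It turned to 0.21 ± 0.05 without CREB3L1 replicate 3 and did not pass the test (adjusted p = 0.138). That array differed from the mean of the other CREB3L1 arrays by -0.81, while for Nfkb2, Nfkbib and Rela it deviated upward.

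Nfkbib, the gene of IkB beta, read 8.77, 8.56 and 8.56 on the untransfected and 8.88, 8.62 and 9.39 on the CREB3L1 arrays. The groups overlapped and CREB3L1 replicate 3 was again the highest. The difference was 0.34 ± 0.21 (adjusted p = 0.871), and 0.12 ± 0.11 without CREB3L1 replicate 3 (adjusted p = 0.872). Birc3, the gene of the ubiquitin ligase cIAP2 of the tumour necrosis factor receptor complex, was below background on every array, between 3.35 and 3.62, with a difference of 0.01 ± 0.08 (adjusted p = 0.9998), and -0.06 ± 0.07 without CREB3L1 replicate 3 (adjusted p = 0.991). The known NF-kB target Birc3 was thus not detected above background in either group, so no fold is given for it or for Relb.

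In all, every CREB3L1 array lay above every untransfected array for 3 of the 8 members, Nfkb1, Nfkb2 and Tnfaip3, and below for 0. The same held for 6.52% and 7.75% of all probe sets tested, those below background included. Without CREB3L1 replicate 3, Nfkbia joined them to give 4 of 8, against 12.3% of all probe sets above and 14.1% below. The median difference of the 8 was 0.29, and 0.17 without CREB3L1 replicate 3, beside -0.01 and 0.00 over the 14217 genes of the array.

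The inhibitors Tnfaip3 and Nfkbia were also set against each other within arrays. The Tnfaip3 value minus the Nfkbia value of the same array was -3.43, -3.39 and -3.45 in untransfected cells and -2.64, -2.57 and -1.55 in CREB3L1 cells. The groups did not overlap, and the gap moved by 1.17, or by 0.81 without CREB3L1 replicate 3. Tnfaip3 alone already separated the groups, with a difference of 1.10 beside the -0.06 of Nfkbia. The gap thus largely repeats the Tnfaip3 difference and is no further result. An exact two-sided permutation test over arrays gave p = 0.10 in both cases, the smallest p that 3 arrays against 3 or against 2 allow, and 0.20 after adjustment over the 2 pairs compared. For Nfkb1 minus Rela the gap moved by 0.26 and the groups overlapped (exact permutation p = 0.30, adjusted 0.30), and by 0.39 without CREB3L1 replicate 3 (exact permutation p = 0.10). Nfkb1 too had already been called by itself. The share of all gene pairs whose gap separates the groups was not computed.

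The rest of the pathway was read from lists of its parts with 1 probe set per gene, the brightest. Of all genes read this way, 0.577% were called higher and 1.52% lower, and 2.02% and 3.70% without CREB3L1 replicate 3. Ligands that start NF-kB signalling were mostly not detected above background. Of 10 measured, 1 was above background, the interleukin 1 gene Il1a at 9.57 ± 0.01 in untransfected cells and 9.45 ± 0.29 in CREB3L1 cells, a difference of -0.12 and of 0.05 without CREB3L1 replicate 3, and Tnf, Il1b, Lta and Ltb were below it in both groups. With limma, 0 ligand genes passed the test with or without CREB3L1 replicate 3, and 0 had an unadjusted p below 0.05. The smallest p belonged to Il33 and Lta, both below background, with differences of -0.05 and 0.04, and -0.02 and 0.01 without CREB3L1 replicate 3.

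Receptors that feed NF-kB had no call with all arrays. Of 13 measured, 8 were above background, 0 passed the test, and 4 had an unadjusted p below 0.05, all of them higher. At that cut the lists described below were mixed. Adaptors and kinases had 6 higher and 2 lower, other inhibitors 3 and 3, and target genes 5 and 9. The share of all genes at that cut was not computed, so these counts have no base to be read against. The list's median difference was 0.19, and 0.05 without CREB3L1 replicate 3. Il1rap, the co-receptor of interleukin 1, went from 10.57 ± 0.15 to 11.15 ± 0.23, a difference of 0.58 ± 0.14 (adjusted p = 0.182), and the endotoxin receptor gene Tlr4 gave 0.34 ± 0.08 (adjusted p = 0.204), and 0.40 ± 0.07 without CREB3L1 replicate 3 (adjusted p = 0.0524). With that array left out Il1rap was called at 0.71 ± 0.09 (adjusted p = 0.0224), as was Tnfrsf12a, the TWEAK receptor gene, at 0.36 ± 0.06 (adjusted p = 0.0483). The second Il1rap probe set was below background on all arrays (0.01).

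Of 26 adaptors and kinases above the IkB kinase, 1 rose and 0 fell. Tab3, which couples the kinase TAK1 to ubiquitin chains, went from 10.06 ± 0.08 to 10.52 ± 0.07, a difference of 0.46 ± 0.06 (adjusted p = 0.0321), and of 0.49 ± 0.06 without CREB3L1 replicate 3 (adjusted p = 0.0185). It lost the call when any 1 array other than CREB3L1 replicate 3 was left out (0.0941 to 0.130) and with a mean-variance trend (0.154). The second Tab3 probe set was below background on all arrays (0.07). Card10, a scaffold of the CARMA family, gave -1.06 ± 0.18 (adjusted p = 0.0829) and was called without CREB3L1 replicate 3 at -1.21 ± 0.15 (adjusted p = 0.0212). The median difference of the list was 0.07, and 0.01 without CREB3L1 replicate 3.

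The IkB kinase itself showed no call. Of 4 genes measured, 0 passed the test, also without CREB3L1 replicate 3, and 0 had an unadjusted p below 0.05. Chuk, the gene of the alpha kinase, read 13.37 ± 0.05 and 13.37 ± 0.04 (SD, n = 3 each). Ikbkb, the gene of the beta kinase, gave -0.74 ± 0.50 (adjusted p = 0.935), a value that rests on CREB3L1 replicate 3 at 5.44, since without it the difference was -0.20. Tank gave -0.36 ± 0.29, and -0.04 without that array. Of 7 coactivators and modifiers of RelA 0 passed the test, and 1 had an unadjusted p below 0.05, Hdac1 at -0.16 ± 0.05 (adjusted p = 0.386, and -0.12 without CREB3L1 replicate 3). A second Hdac1 probe set read 2.47 on CREB3L1 replicate 3 and at least 10.06 on every other array. The next smallest p was that of Hdac3, at -0.64 ± 0.34 (adjusted p = 0.765). The size of this difference rests largely on CREB3L1 replicate 3 at 8.87, but its direction does not. CREB3L1 replicates 1 and 2 also lay below all untransfected arrays. Without CREB3L1 replicate 3 the Hdac3 difference was -0.25 ± 0.04, with an interval of -0.36 to -0.14, and did not pass the test (adjusted p = 0.0525).

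Among 18 other inhibitors and nuclear IkB proteins, 1 rose and 1 passed the test lower while below background. Zc3h12a, the gene of the ribonuclease regnase-1 that degrades cytokine mRNAs, read 10.53, 10.51 and 10.80 on the untransfected and 11.36, 11.42 and 11.45 on the CREB3L1 arrays. The groups did not overlap, with a difference of 0.80 ± 0.09, which is 1.74-fold (adjusted p = 0.0226). It kept the call without CREB3L1 replicate 3 (0.78, adjusted p = 0.0226) and without untransfected replicate 3 (0.0148) and lost it without any 1 of the other 4 arrays (0.0943 to 0.112). Pdlim2, whose product marks RelA for degradation, passed with -1.18 ± 0.11 (adjusted p = 0.0140), but at 3.70 and 2.52 both groups were below background, and it gave -1.29 ± 0.07 without CREB3L1 replicate 3 (adjusted p = 0.00206). Its call was lost without any 1 array other than CREB3L1 replicate 3 (0.0562 to 0.0848).

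Without CREB3L1 replicate 3, 3 genes of this list were called higher and 2 lower. The genes here and elsewhere that passed without that array but not with all arrays were named after their values were seen. The added rises were Nkrf, a repressor that binds NF-kB target promoters, at 0.69 ± 0.04 (adjusted p = 0.00279, against 0.59 ± 0.09 and 0.0597 with all arrays), and Nfkbiz, a nuclear IkB protein, at 0.45 ± 0.07 (adjusted p = 0.0364, against 0.36 ± 0.09 and 0.225). The added fall was Commd1 at -0.32 ± 0.05 (adjusted p = 0.0446, against -0.29 ± 0.05 and 0.0987).

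**Figure D3:**
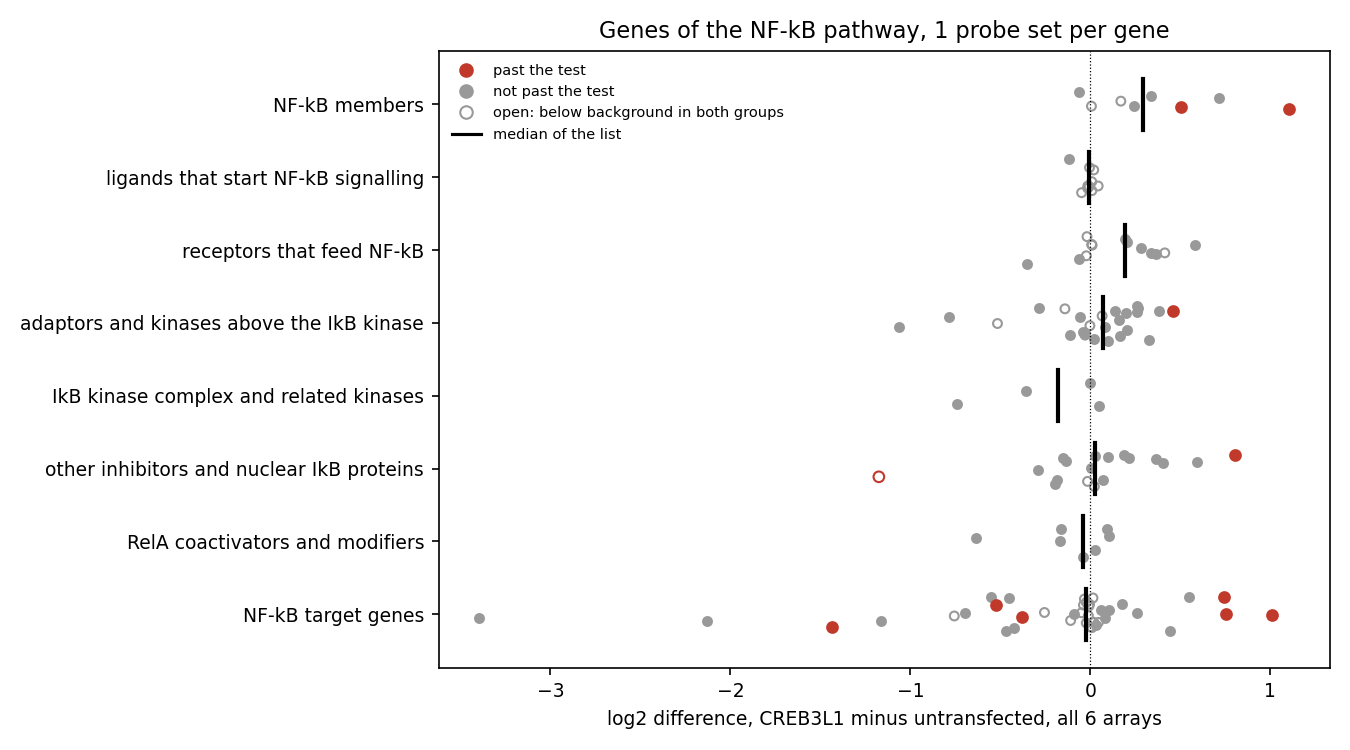
Log2 difference, CREB3L1 minus untransfected with all 6 arrays, of each measured gene of the members and of 7 further pathway lists, 1 point per gene with random vertical spread. Red points passed the test, open points lay below background in both groups, and the black bar is the median of the list. The members' median is 0.29, and the target genes spread to both sides around a median of -0.02.

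Target genes of NF-kB moved in both directions. Of 39 measured, 23 were above background, 3 rose and 3 fell, and the median difference was -0.02. Without CREB3L1 replicate 3, 4 were called higher and 5 lower, with a median of -0.01. The rises were Cflar, which encodes the caspase-8 inhibitor c-FLIP, Cxcl1, a neutrophil chemokine, and Gadd45b, a stress protein. The falls were the chemokine genes Cxcl3 and Ccl2 and the survival gene Bcl2l1, of which Ccl2 and Bcl2l1 were named after their values were seen. The targets were listed from general knowledge of NF-kB with earlier results of these cells known.

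Cflar read 7.39, 7.34 and 7.04 on the untransfected and 8.24, 8.23 and 8.33 on the CREB3L1 arrays. The groups lay far apart, with a difference of 1.01 ± 0.10, which is 2.02-fold (adjusted p = 0.0170). Cxcl1 read 13.92, 13.86 and 13.76 against 14.59, 14.72 and 14.48, a difference of 0.75 ± 0.08 (adjusted p = 0.0190), and Gadd45b rose by 0.74 ± 0.07 (adjusted p = 0.0157). Leaving out CREB3L1 replicate 3, the differences were 0.98 for Cflar, 0.81 for Cxcl1 and 0.71 for Gadd45b, and all 3 kept the call (0.0164, 0.00722 and 0.0136). The second Cflar probe set was below background on all arrays (0.06).

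Cxcl3, another neutrophil chemokine, read 11.25, 10.96 and 11.01 on the untransfected and 9.75, 9.82 and 9.36 on the CREB3L1 arrays, opposite in direction to Cxcl1. It fell by 1.43 ± 0.15 on the log2 scale (adjusted p = 0.0189), and of its other probe sets a pair above background fell by 1.20 and 1.15 (adjusted p = 0.0202 and 0.0325) while a pair below background gave -0.02 and 0.00. Bcl2l1 fell by 0.52 ± 0.06 (adjusted p = 0.0209) and Ccl2, the monocyte chemokine gene, by 0.38 ± 0.05 from 15.16 ± 0.08 (adjusted p = 0.0376). Leaving out CREB3L1 replicate 3, the differences were -1.29 for Cxcl3, -0.51 for Bcl2l1 and -0.37 for Ccl2, and all 3 kept the call (0.00516, 0.0211 and 0.0361). The calls without CREB3L1 replicate 3 took in Ccl7 at -2.88 ± 0.26 (adjusted p = 0.00877), Cxcl10 at -1.56 ± 0.19 (adjusted p = 0.0192) and Nuak2 at 0.38 ± 0.04 (adjusted p = 0.0182), which had 0.0530, 0.200 and 0.0596 with all arrays. Icam1 and Il6, classical targets named after their values were seen, gave -1.17 and -0.47 and did not pass (adjusted p = 0.186 and 0.10), nor did they without CREB3L1 replicate 3, at -1.28 and -0.44 (adjusted p = 0.104 and 0.0896).

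The calls on targets were read again with arrays left out, as for Tnfaip3 and Nfkb1. Without any 1 array other than CREB3L1 replicate 3, Cxcl1 (0.0613 to 0.101) and Cxcl3 (0.0631 to 0.0865) lost the call each time. Cflar kept it only without untransfected replicate 3 (0.0179, otherwise 0.0571 to 0.0848), Gadd45b only without untransfected replicate 2 (0.0383, otherwise 0.0657 to 0.0779), Ccl2 only without untransfected replicate 3 (0.0435, otherwise 0.141 to 0.180) and Bcl2l1 only without CREB3L1 replicate 1 (0.0286, otherwise 0.0762 to 0.109). In the ordinary test without moderation all 6 lost the call, with 0.101 for Gadd45b, 0.111 for Bcl2l1, 0.114 for Cflar, 0.116 for Cxcl1, 0.124 for Cxcl3 and 0.145 for Ccl2, as did Tab3 (0.140), Zc3h12a (0.131) and Pdlim2 (0.104) above. Ccl2 also lost it with median centring (0.0989) and with dim probe sets left out (0.0700), and Bcl2l1 with a mean-variance trend (0.140).

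**Figure D4:**
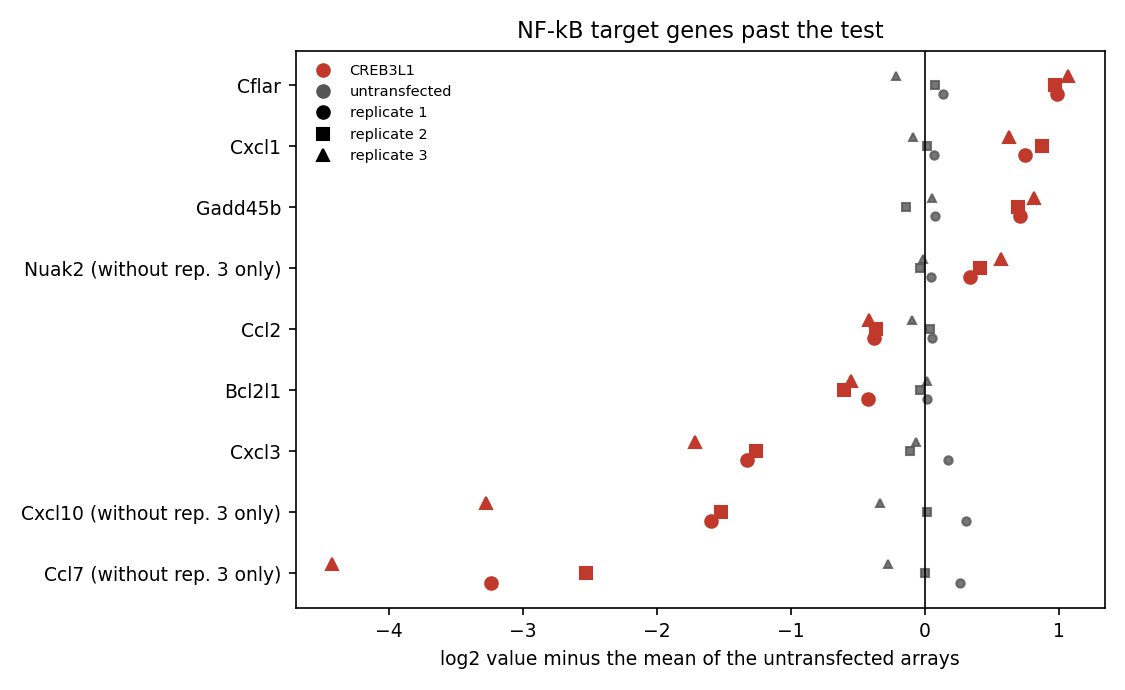
Log2 value of each array minus the mean of the untransfected arrays, for the 9 NF-kB target genes past the test with all arrays or without CREB3L1 replicate 3, with CREB3L1 arrays in red, untransfected arrays in grey and a marker shape for each replicate number. The 9 genes were chosen by the test on these same arrays, so the CREB3L1 arrays lying on 1 side of the untransfected ones in each follows largely from that choice. Of all 39 targets measured, 6 had every CREB3L1 array above and 11 below, against 6.52% and 7.75% of all probe sets. These sets are unlike, since each target is the brightest probe set of its gene and the shares include all probe sets below background. A share over genes was not computed. CREB3L1 replicate 3 lies lowest of all arrays for Ccl7, Cxcl10 and Cxcl3, and by a small margin for Ccl2.

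Sequence and position were set beside these differences as descriptions. Of 11733 measured genes with an upstream window, 536 had a kappa-B match, and of those 1.49% were called higher and 0.933% lower with all arrays, against 0.588% and 1.50% of all 11733. Tnfaip3 and Cxcl1 were among the 8 that rose. Without CREB3L1 replicate 3 the shares were 3.36% and 3.54%, against 2.02% and 3.81%. The difference between these shares was not tested.

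Around Tnfaip3, the median difference of the 24 nearest genes above background in the order of assembly GRCr8, relative to all such genes, was 0.12, and around Nfkb1 it was 0.03, beside their own differences of 1.10 and 0.51. Of the other members above background, the neighbours' median was 0.05 for Nfkb2 (own difference 0.72), 0.15 for Nfkbib (0.34), 0.20 for Rela (0.24) and -0.19 for Nfkbia (-0.06). For Rela and Nfkbia the neighbours thus differed about as much as, or more than, the gene itself with all arrays. Without CREB3L1 replicate 3 the neighbours' median was 0.11 for Rela, beside its own 0.09. For Nfkbia it was then -0.10, opposite in sign to its own 0.21. The same medians were 0.13 for Tnfaip3 and 0.02 for Nfkb1. Around Xiap, an X-linked inhibitor of apoptosis, the neighbours' median was 0.29 with 23 of 24 above 0, beside a difference of 0.20 in Xiap itself. Around Nkrf, also X-linked, it was 0.15 with 21 of 24 above 0, against 51.1% of all genes above background. The neighbours of Tab3, X-linked too, had a median of 0.04 with 13 of 24 above 0. Those of Irak1, another X-linked gene, had a median of 0.02 with 14 of 24 above 0. Xiap, Nkrf and Irak1 were added to this reading by hand, outside the rule for named genes. Some windows on other chromosomes leaned the opposite way. Around Cd14 the median was -0.21 with 5 of 24 above 0, and around Hdac3 -0.21 with 6 of 24. Around Nfkbia 6 of 24 were above 0. Without CREB3L1 replicate 3 the medians were -0.12 for Cd14, -0.13 for Hdac3, 0.33 for Xiap and 0.18 for Nkrf. The spread of such medians over all windows was not computed.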

How the data were processed

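Per the submitters' processing notes, RMA and Partek 6.6 were used, with no probe-level settings given. The deposited table was read as log2 expression because its values ran from 0.27 to 17.2, and every fold rests on that base, which no source states. The table was used as deposited. Groups came from the label naming what was transfected. The labels do not name separate cultures, and the p-values therefore measure only the spread between these arrays, which may be technical. Precision is limited by having 3 arrays in each group. No arrays were copies: any pair had at most 10 probe sets of equal value.

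Of 31099 probe sets, 57 controls were set aside. In the platform annotation held by GEO, 20826 probe sets had 1 symbol, 436 several and 9780 none listed. The comparison used limma 3.58.1 under R 4.3.3 with Benjamini-Hochberg adjustment (1 mean per group, eBayes, two-sided). The fit was tested on simulated data. The table has no detection calls, and the background level of 5 is a chosen setting. The members and the lists were chosen with earlier results of these data known. Named genes are all members and, from each of the other 11 lists, up to 4 past the threshold with the smallest p, or, in a list with none past it, the 2 of smallest p. Marker lists had no gene past the threshold. Their smallest p belonged to Krt14 and Krt7 (-0.17 and 0.30), Col3a1 and Pdgfrb (0.19 and -0.04), Cd14 and Csf1r (-0.29 and 0.16), and Tek and Tie1 (-0.17 and -0.07).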

Additional observations from a re-analysis of the deposited data

How the results depend on the processing

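The settings tried were quantile normalisation, median centring, leaving out dim probe sets, a mean-variance trend, robust eBayes, an ordinary test, array weights, the mean of a gene's probe sets, another background level and leaving out each array. The count of members called higher was 2 in each except the mean-variance trend, where it was 1 (Tnfaip3), and the ordinary test, where it was 1 (Nfkb1), and it was 2 throughout when arrays were left out. The count called lower was 0 throughout. Nfkb1 was called in 13 of 14 alternatives (0.48 to 0.52) and Tnfaip3 in 13 of 14 (1.02 to 1.18). Of these, the mean of a gene's probe sets could not change the differences, since each measured member had 1 probe set. Nfkb2, Rela, Relb, Nfkbia, Nfkbib and Birc3 were called in 0. The sign turned, with no call on either side, for Nfkbia with array weights (0.17) and without CREB3L1 replicate 3 (0.21), and for Csf1r in the same settings (-0.0031 and -0.084). Leaving out 1 array gave -0.21 to 0.21 for Nfkbia, -0.084 to 0.32 for Csf1r and -0.057 to 0.080 for Birc3. It turned for Birc3 with array weights (-0.11) and without untransfected replicate 1 (-0.027), CREB3L1 replicate 1 (-0.0054) and CREB3L1 replicate 3 (-0.057). With a background level of 4 or 6 the same number of members, 2, lay below it. Over all probe sets, 132 were called higher and 299 lower. The count of higher calls was 79 with a mean-variance trend, 9 in the ordinary test and 600 with array weights, and 28 to 479 when 1 array was left out. The count of lower calls was 65 in the ordinary test and 952 with array weights, and 116 to 756 when 1 array was left out, with the highest counts without CREB3L1 replicate 3. The cause was not tested. No paired analysis was possible because untransfected and CREB3L1 arrays share no replicate number in the labels. Signal near background limits what can be said of Relb and Birc3.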
